A study of Mus musculus with 4 samples.

Results

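The genes described here encode nucleolar factors that make ribosomes, and the question was how their promoters were occupied by Myc and its partner Max in mouse embryonic stem cells (ESCs). A list of 50 genes was used, 49 of which are annotated as protein-coding in GENCODE M1 on the mm9 assembly. Noc2l was not found in that annotation and has no value here. The 49 genes were set against the other 22331 of 22380 protein-coding genes. ChIP-Seq was performed on E14 mouse ESCs. Bio-Myc ChIP used a stable E14 clone that expresses Myc with a biotin tag from the ubiquitous EF1α promoter in cells that carry the BirA biotin ligase, and streptavidin beads captured the tagged protein. Max ChIP used wild type parental E14 cells and an antibody to the endogenous protein. The controls were a streptavidin ChIP from cells without tagged Myc and an IgG ChIP from wild type parental cells. The description of the samples calls the cells of the streptavidin control wild type, whereas the methods name BirA-ES cells. Each of the 4 ChIPs is 1 library, so no value has a replicate, and the control libraries entered only through the calling of peaks.

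In the nucleolus, RNA polymerase I transcribes the ribosomal DNA into a long precursor RNA, which is modified by small nucleolar ribonucleoproteins (snoRNPs), cut and folded together with ribosomal proteins into the small and the large subunit. Box C/D snoRNPs guide the methylation of ribose, and box H/ACA snoRNPs guide the conversion of uridine to pseudouridine. Myc binds DNA as a dimer with Max, for which the preferred sequence is the E-Box CACGTG, and genes of ribosome production are a classical group of Myc targets. Tagged Myc was expressed from a transgene, so its peaks are those of the tagged protein in 1 clone.

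The lists hold 3962 Bio-Myc and 11570 Max peaks, each with a score equal to -10 times the log10 of the MACS p-value. The lowest score in the Bio-Myc list is 80. A gene was called bound when a peak lay within 1 kb of any of its annotated transcription start sites (TSSs). The score rises with both enrichment and read depth, and the depth is unknown here, so scores were ranked within a list. Intervals of shares are 95% Wilson intervals, which cover counting error only and treat genes as independent. The lists do not tell which genes were expressed, and the other protein-coding genes include genes that are silent in ESCs, whose number was not determined here. The labelled cell type could not be checked against marker expression for the same reason.

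The E-Boxes under the promoter peaks are shown here because CACGTG is the preferred sequence of the dimer of Myc and Max. An E-Box lay under a promoter peak of either list at 35 of the 49 genes. At 18 genes an E-Box lay within 100 bp of the reference TSS, which is the outermost TSS of the gene where a promoter peak lies within 1 kb of it, and otherwise the TSS nearest to the strongest peak. Both counts are a description without a background, and shares set against the other genes are given below for each list. The site nearest to the TSS is printed for 12 of the 18 genes. The E-Box is in capitals, each sequence is 30 bases long and reads 5′ to 3′ on the strand of the gene in mm9. The sites of Rrp12 and Noc3l lay under a Max peak only, and the others lay under peaks of both lists. Fbl, Utp18 and Rrp12 have their E-Box upstream of the TSS, and the others have it in a UTR exon.
Fbl, chr7:28954742-28954771, plus strand: ggcgctcctttcCACGTGcgaaagcctgag
Mybbp1a, chr11:72254857-72254886, plus strand: gtcttctgagccCACGTGtttggctcagca
Pes1, chr11:3863968-3863997, plus strand: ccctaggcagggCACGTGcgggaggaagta
Rrs1, chr1:9535505-9535534, plus strand: tccggacgtccgCACGTGgttgccggttta
Wdr43, chr17:71965560-71965589, plus strand: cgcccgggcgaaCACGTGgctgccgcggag
Utp18, chr11:93747083-93747112, minus strand: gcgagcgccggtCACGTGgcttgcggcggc
Utp20, chr10:88289505-88289534, minus strand: cggcactaactaCACGTGaggaaaagcagg
Tsr1, chr11:74711594-74711623, plus strand: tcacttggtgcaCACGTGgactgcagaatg
Ltv1, chr10:12912898-12912927, minus strand: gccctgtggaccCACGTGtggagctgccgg
Pno1, chr11:17111538-17111567, minus strand: tgtacaaccacgCACGTGttcctctagtcg
Rrp12, chr19:41970638-41970667, minus strand: gctgaggacacaCACGTGggttctgccgtg
Noc3l, chr19:38893655-38893684, minus strand: ttgcgctcagtgCACGTGtgtcttttccac

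At some genes, several E-Boxes lay close together under peaks of both lists and outside the exons of the gene. Stretches of 4 such genes are printed as examples, and Wdr43 and Utp18 also had such pairs. The stretches are in introns of Ncl, Npm1 and Gnl3 and upstream of the TSS of Rrn3. They read 5′ to 3′ on the strand of the gene in mm9, with each E-Box in capitals. The stretch of Ncl holds 5 E-Boxes in 233 bases, that of Npm1 holds 3 in 297 bases, that of Gnl3 holds 2 in 109 bases and that of Rrn3 holds 2 in 197 bases.
Ncl, chr1:88255190-88255422, minus strand: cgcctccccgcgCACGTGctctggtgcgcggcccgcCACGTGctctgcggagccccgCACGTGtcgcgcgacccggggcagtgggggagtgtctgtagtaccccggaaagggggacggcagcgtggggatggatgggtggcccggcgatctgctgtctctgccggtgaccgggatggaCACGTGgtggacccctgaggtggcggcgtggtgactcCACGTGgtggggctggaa
Npm1, chr11:33062104-33062400, minus strand: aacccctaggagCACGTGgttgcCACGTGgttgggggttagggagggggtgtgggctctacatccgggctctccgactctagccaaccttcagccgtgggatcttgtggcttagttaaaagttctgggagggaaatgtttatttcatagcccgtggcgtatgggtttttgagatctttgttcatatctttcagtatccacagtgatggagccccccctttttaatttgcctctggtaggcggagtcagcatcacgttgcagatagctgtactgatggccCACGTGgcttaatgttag
Gnl3, chr14:31831147-31831255, minus strand: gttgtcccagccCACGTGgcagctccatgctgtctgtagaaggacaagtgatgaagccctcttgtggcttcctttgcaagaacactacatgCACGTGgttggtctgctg
Rrn3, chr16:13780565-13780761, plus strand: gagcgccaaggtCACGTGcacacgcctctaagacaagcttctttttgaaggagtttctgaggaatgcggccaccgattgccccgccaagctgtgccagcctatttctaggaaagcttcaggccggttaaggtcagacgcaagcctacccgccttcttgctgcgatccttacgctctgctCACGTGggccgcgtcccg

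Nearly all of the nucleolar factor genes carried promoter peaks. A Bio-Myc promoter peak was found at 42 of 49 genes (85.7%, interval 73.3 to 92.9), compared with 14.5% of the other protein-coding genes. A Max promoter peak was found at 47 of 49 (95.9%, interval 86.3 to 98.9), compared with 34.7%. All 42 genes with a Bio-Myc peak also had a Max peak, so 42 of 49 had both, compared with 12.5% of the other genes. Neither peak was present at 2 of 49 genes (4.08%), Utp15 and Wdr3, compared with 63.4%. Among genes with a Max peak, Bio-Myc was present at 42 of 47 nucleolar factor genes (89.4%, interval 77.4 to 95.4) and at 36.0% of the others.

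Most of these genes have a CpG-rich promoter, defined by the 250 bp to either side of the outermost TSS. This held for 40 of 49 genes (81.6%), compared with 44.3% of the other genes. Within CpG-rich promoters, Bio-Myc was found at 34 of 40 nucleolar factor genes (85.0%, interval 70.9 to 92.9) and at 26.0% of the others. Max was found at 38 of 40 (interval 83.5 to 98.6) and at 59.2% of the others. The shares of both proteins were thus above those of the other genes among CpG-rich promoters as well.

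The peaks were also high in score. The median Bio-Myc score of the 42 bound genes was 254 (interval of the median 174 to 372, range 83.7 to 1586), and that of the other 3233 bound genes was 142. The median Max score of the 47 bound genes was 379.6 (interval 297 to 571, range 94.1 to 1916), and that of the other 7741 bound genes was 195. Among all bound protein-coding genes, the highest-scoring 10% held 15 of the 42 nucleolar factor genes for Bio-Myc (35.7%) and 19 of 47 for Max (40.4%). A limit of 300 on the score was chosen after seeing the data. When only peaks with at least that score were counted, Bio-Myc remained at 19 of 49 genes (38.8%) and at 2.06% of the others. Max remained at 30 of 49 (61.2%) and at 9.87% of the others.

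**Figure D1:**
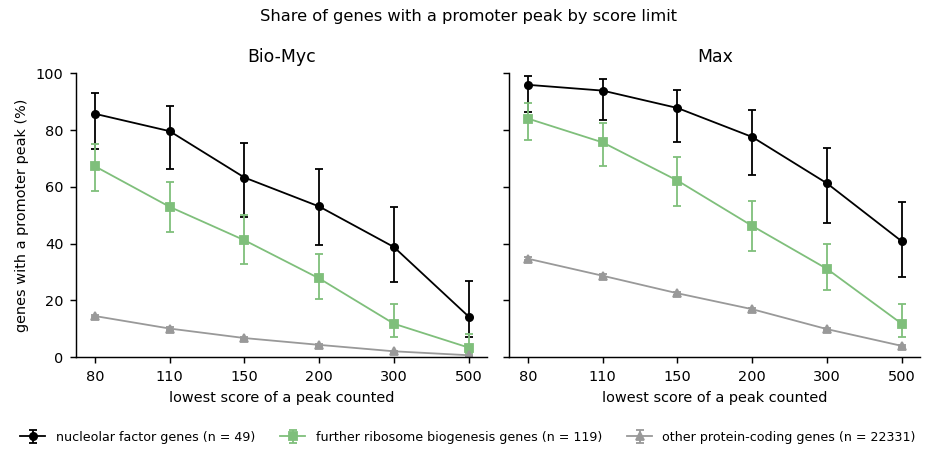
Share of genes with a promoter peak (percent, vertical axis) against the lowest score of a peak that was counted (horizontal axis, steps not to scale), for Bio-Myc on the left and Max on the right. Points are the shares of 49 nucleolar factor genes, 119 further ribosome biogenesis genes and 22331 other protein-coding genes, and bars are 95% Wilson intervals. The black points start at 85.7% (Bio-Myc) and 95.9% (Max), are at 38.8% and 61.2% for a limit of 300, and lie above the grey points at every limit.

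The groups by role hold 2 to 17 genes, so their counts are given as a description. Of the other protein-coding genes, 14.5% were bound by Bio-Myc and 34.7% by Max. Fbl, Nop56 and Nop58, the core proteins of box C/D snoRNPs, were bound at 3 of 3 genes by both proteins. Fibrillarin, encoded by Fbl, is the methyltransferase of the particle, and its promoter had a Bio-Myc score of 328 and a Max score of 379.6. Nop56 had scores of 450.45 and 1209, the latter ranking 74 among 7788 genes bound by Max. Nop58 had the higher rank for Bio-Myc, with a score of 1285, rank 7 of 3275, and a Max score of 764, rank 330. Its single E-Box lies 376 bp downstream of the TSS in an intron, and is shown because Nop58 had the second highest Bio-Myc score among the nucleolar factor genes.
Nop58, chr1:59742215-59742244, plus strand: ggttcaggtgaaCACGTGgcttctccgaat

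The 4 proteins of box H/ACA snoRNPs were bound at 4 of 4 genes by both proteins. Gar1 had scores of 519 for Bio-Myc and 542 for Max, and Nhp2 had 372 and 424. Dkc1, whose product dyskerin is the pseudouridine synthase, had a Bio-Myc score of 394 against a Max score of 176. Its ratio of Max to Bio-Myc, 0.447, was the lowest among the nucleolar factor genes. Nop10 had 219.9 and 160.4, a ratio of 0.729. The median scores of this group were 383 for Bio-Myc and 299.985 for Max.

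The genes for rDNA transcription and for snoRNP chaperones were bound at 6 of 6 by both proteins. Tcof1, which encodes the treacle protein of the rDNA transcription machinery, had scores of 584 for Bio-Myc and 468 for Max. Ddx21, an RNA helicase, had 522 and 502, and Mybbp1a, a nucleolar protein that binds transcription factors, had 482 and 599. Nolc1, a chaperone of snoRNPs, had 302 and 577. Rrn3, the initiation factor that recruits RNA polymerase I, had 172 and 571, and 2 E-Boxes at 213 bp and 46 bp upstream of its TSS. Ubtf, which encodes the rDNA-binding factor UBF, had the lowest Bio-Myc score of the group, 137. That peak was 8355 bp from the outermost TSS and 710 bp upstream of an internal one, whereas the strongest Max peak, with a score of 219, ended 93 bp upstream of the outermost TSS. The promoter peaks of both lists therefore did not overlap at Ubtf. They overlapped at 41 of the 42 genes with both peaks (97.6%), compared with 98.0% of the other protein-coding genes with both.

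Ncl and Npm1 encode nucleolin and nucleophosmin, the abundant phosphoproteins of the nucleolus, and had the highest Max scores of all the nucleolar factor genes. Ncl had a Bio-Myc score of 1586, which ranked 2 among 3275 bound protein-coding genes, and a Max score of 1916, which ranked 19 among 7788. Its Bio-Myc peak spanned chr1:88254796-88256868 and held 5 E-Boxes, all in an intron between 622 bp and 825 bp downstream of the TSS. Npm1 had a Bio-Myc score of 614, rank 100, and a Max score of 1256, rank 67. Its 3 E-Boxes lay between 820 bp and 1087 bp downstream of the outermost TSS.

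The PeBoW complex, which acts in the maturation of the large subunit, was bound at 3 of 3 genes. Pes1 had scores of 128 for Bio-Myc and 649 for Max, Bop1 had 247 and 643, and Wdr12 had 317 and 382. For Pes1 the E-Box lies 4 bp downstream of the TSS. For Bop1 no E-Box was found under either peak. The median scores of the 3 genes were 247 for Bio-Myc and 643 for Max.

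Of the 10 further factors of large subunit assembly, 9 were bound by Bio-Myc and 10 by Max. Gnl3, which encodes the GTPase nucleostemin, had a Max score of 1023 and a pair of Bio-Myc peaks. The stronger of these, with a score of 260.1, covered the intronic E-Boxes at 1034 bp and 1113 bp downstream, and the other, with a score of 177, covered the TSS. Nop2, an RNA methyltransferase, had the highest ratio of Max to Bio-Myc, 7.58, with a Bio-Myc score of 83.7 close to the limit of calling and a Max score of 635. Nip7 had 95.3 and 540.3, a ratio of 5.67, and is the only gene of the list on chromosome 8, which holds 1357 of the 11570 Max peaks and 214 of the 3962 Bio-Myc peaks. Whether that density bears on the score of Nip7 was not tested. Rrp1b had 392 and 826, with no E-Box under its Bio-Myc peak and 2 under a further Max peak 1217 bp and 1284 bp downstream. Noc3l had a Max peak alone, with a score of 114. The remaining genes, Rrs1, Ddx18, Gnl2, Ebna1bp2 and Nop16, had Bio-Myc scores between 115 and 268 and Max scores between 94.1 and 591. At Gnl2, the peaks lay over an annotated internal TSS, 13197 bp (Bio-Myc) and 13086 bp (Max) from the outermost one.

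The small subunit processome is the large particle that assembles on the precursor of the small subunit. It is the largest group, with 17 of the 49 genes, and held most of the genes without a peak. Of the 17, 12 were bound by Bio-Myc and 15 by Max, with median scores of 199 and 303. Of the other protein-coding genes, 14.5% were bound by Bio-Myc and 34.7% by Max. Heatr1, Wdr43, Wdr75 and Utp15 belong to its UtpA module, which joins the precursor early, and of these Heatr1 and Wdr43 had both peaks. Wdr3, Wdr36 and Utp18 belong to the UtpB module, of which Wdr36 and Utp18 had both peaks. Imp3, Imp4 and Mphosph10 form the Mpp10 complex, which had both peaks at 3 of 3 genes. Utp20, with 494 and 372, had the highest Bio-Myc score, and Wdr43, with 442 and 1005, the highest Max score. Wdr36 had 380.3 and 309, and Utp18 had 362 and 818 with 4 E-Boxes under its Bio-Myc peak. Heatr1, Imp3, Rrp9, Imp4, Noc4l, Nop14, Emg1 and Mphosph10 had Bio-Myc scores between 112 and 242 and Max scores between 165 and 332. Wdr75, the GTPase gene Bms1 and the RNA helicase gene Ddx10 had a Max peak alone, with scores of 149, 111 and 327. The closest peaks to Utp15 were both upstream, that of Bio-Myc at 53215 bp and that of Max at 53573 bp. Those of Wdr3 were farther upstream, at 879107 bp and 522388 bp. Both genes have a CpG-rich promoter, and neither has an E-Box within 1 kb of a TSS.

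Rrp12, Tsr1, Ltv1 and Pno1 act on late precursors of the small subunit, and 3 of 4 were bound by Bio-Myc and 4 of 4 by Max. Tsr1, a GTPase-like protein, had the highest Bio-Myc score of the 4, 572, with a Max score of 709 and 3 E-Boxes under the Bio-Myc peak. Pno1 had 109.98 and 711, a ratio of 6.47, and Ltv1 had 139 and 297. Rrp12 had a Max score of 245 and no Bio-Myc peak in the promoter, the nearest lying 15226 bp upstream.

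**Figure D2:**
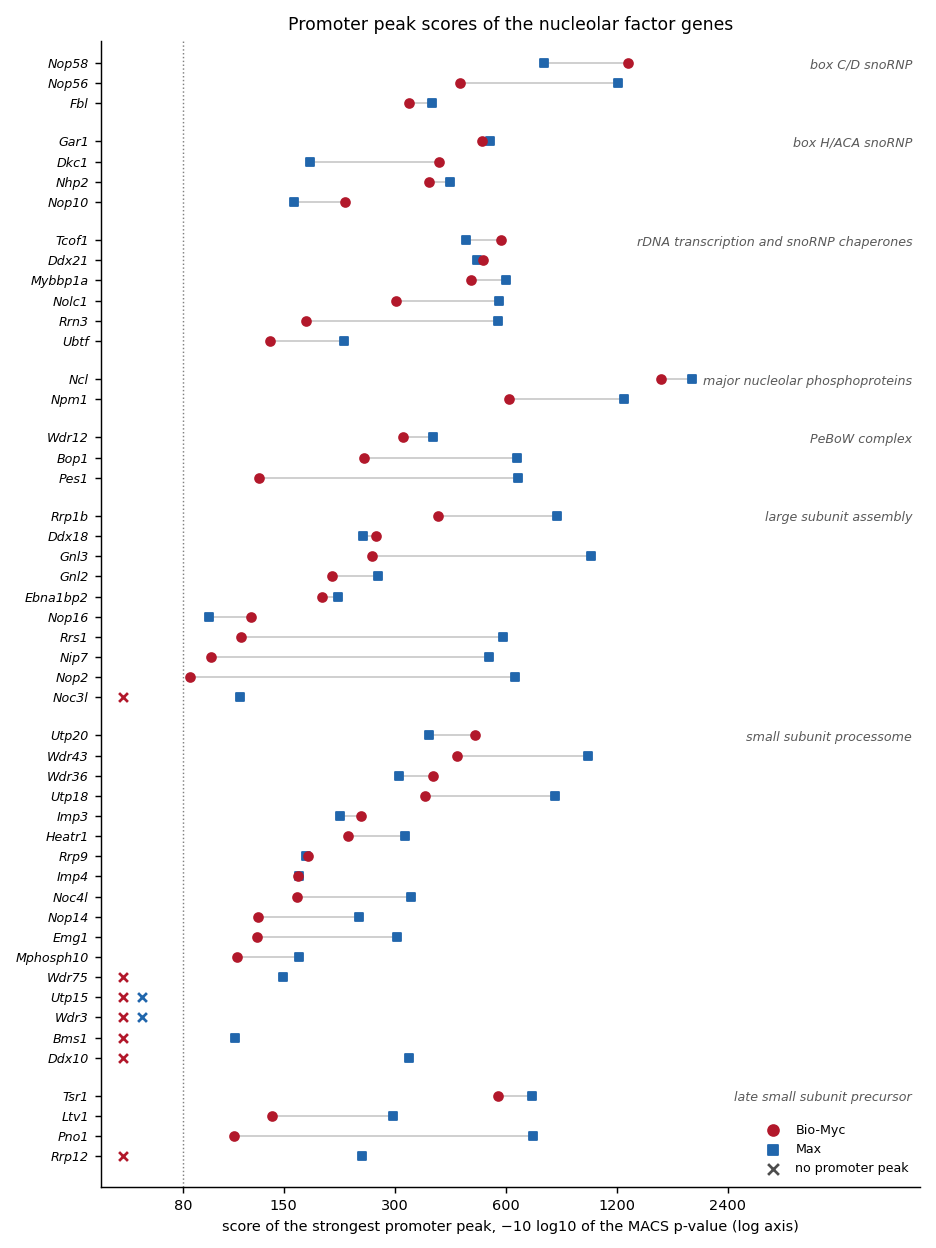
Score of the strongest promoter peak (-10 log10 of the MACS p-value, log axis) for each of the 49 nucleolar factor genes, grouped by role. Red circles are Bio-Myc, blue squares are Max, crosses at the left mark genes with no promoter peak and have no value, and the dotted line is the lowest score of 80. The 7 red crosses are Noc3l, Wdr75, Utp15, Wdr3, Bms1, Ddx10 and Rrp12, and the blue crosses are Utp15 and Wdr3.

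The order of the genes differed between the lists. At the 42 genes with both peaks, the median ratio of the Max score to the Bio-Myc score was 1.38 (interval 1.14 to 2.05), compared with 1.66 at the other 2790 such genes. That interval includes the median of the other genes. The ratio ranged from 0.447 to 7.58 at the nucleolar factor genes and from 0.201 to 17.2 at the others. It is a ratio of scores from libraries of unknown depth, so its level says nothing about the amount of either protein, and only its spread among genes is described. The highest ratios were those of Nop2, Pno1 and Nip7, and the lowest were those of Dkc1, Nop58 and Nop10. Spearman's rho between the scores was 0.433 over the 42 genes and 0.384 over the 2790 others, which share the libraries and their depth.

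**Figure D3:**
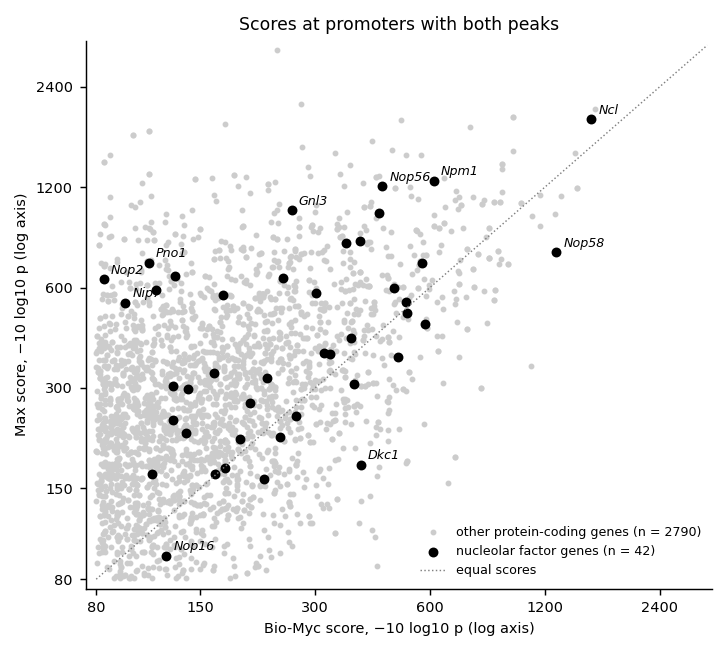
Max score against Bio-Myc score (both -10 log10 p, log axes) of the strongest promoter peaks at genes with both, for 42 nucleolar factor genes in black and 2790 other protein-coding genes in grey. The dotted line marks equal scores. Ncl lies at the upper right with 1586 and 1916, Nop58 and Dkc1 lie below the line, and Nop2, Pno1 and Nip7 lie far above it at low Bio-Myc scores.

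The peaks lay over and just downstream of the TSS. The strongest Bio-Myc peak covered a TSS at 40 of 42 genes (95.2%, interval 84.2 to 98.7). The share of the other bound genes, 87.9%, is within that interval. The strongest Max peak covered a TSS at 46 of 47 (97.9%, interval 88.9 to 99.6), compared with 84.1%. The median centre of the Bio-Myc peaks was 197 bp downstream of the reference TSS (interval 106 to 230), and that of the other bound genes 85 bp downstream. For Max, the medians were 160 bp (interval 60 to 242) and 74 bp. The peaks of the nucleolar factor genes were wider, with medians of 1230.5 bp against 1072 bp for Bio-Myc and 1131 bp against 884 bp for Max. At Rrp9 the centre of the Bio-Myc peak was 1290 bp downstream of the outermost TSS, over an internal TSS.

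An E-Box was found under a promoter Bio-Myc peak at 31 of the 42 bound genes (73.8%, interval 58.9 to 84.7), compared with 49.4% of the other bound genes. Under promoter Max peaks the numbers were 33 of 47 (70.2%, interval 56.0 to 81.3) and 38.4%. The peaks of the nucleolar factor genes are wider, and the part of width in these shares was not tested. In the central 200 bp of the Bio-Myc peaks the shares were 10 of 42 (23.8%, interval 13.5 to 38.5) and 17.8%, and in the central 500 bp 18 of 42 (42.9%, interval 29.1 to 57.8) and 34.7%, both within the intervals. In the central 200 bp of the Max peaks they were 12 of 47 (25.5%, interval 15.3 to 39.5) and 17.9%, which is within the interval. In the central 500 bp of the Max peaks they were 21 of 47 (44.7%, interval 31.4 to 58.8) and 29.5%, which is below the interval. Without regard to peaks, CACGTG lay within 1 kb of a TSS at 40 of 49 genes (81.6%, interval 68.6 to 90.02), compared with 38.9% of the other genes. Among genes with a CpG-rich promoter it lay there at 32 of 40 (interval 65.2 to 89.5), compared with 48.2%. As controls for base content, 7 other palindromes with a central CG were counted under the Bio-Myc peaks of the same genes. GTCGAC was found at 2 of the 42 genes, CTCGAG at 5, ACCGGT at 6, both GACGTC and AGCGCT at 9, TCCGGA at 14 and TGCGCA at 15, which are shares of 4.76% to 35.7%. Among the other bound genes these palindromes were found at 6.62% to 33.1%. The variant E-Box CACGCG, on either strand, was found at 25 of 42 genes (59.5%) and at 57.0% of the others.

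The promoter peaks of the nucleolar factor genes held 61 E-Boxes at 35 genes. Of these E-Boxes, 51 (83.6%) lay in peaks of both lists, compared with 43.4% of those of the other genes. The shares by position below thus compare sets of sites that differ in this respect, and the part of that difference was not tested. Sites of 1 gene are not independent, and 5 of the 61 are those of Ncl, so shares of sites are given as a description. Downstream of the reference TSS lay 49 of 61 (80.3%), compared with 52.2% of the 3839 E-Boxes under promoter peaks of the other genes. By annotation, 23 lay in introns (37.7%, other genes 32.8%) and 17 in UTR exons (27.9%, other genes 12.5%). Coding exons held 7 (11.5%, other genes 8.80%), exons of non-coding transcripts 2 (3.28%, other genes 2.08%), and 12 lay upstream of the gene (19.7%, other genes 43.6%). Within 100 bp of the reference TSS lay 20 E-Boxes of 18 genes (32.8%), compared with 20.9%. A C or G stood on both sides of the E-Box at 29 of 61 (47.5%) and at 39.0% for the other genes.

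**Figure D4:**
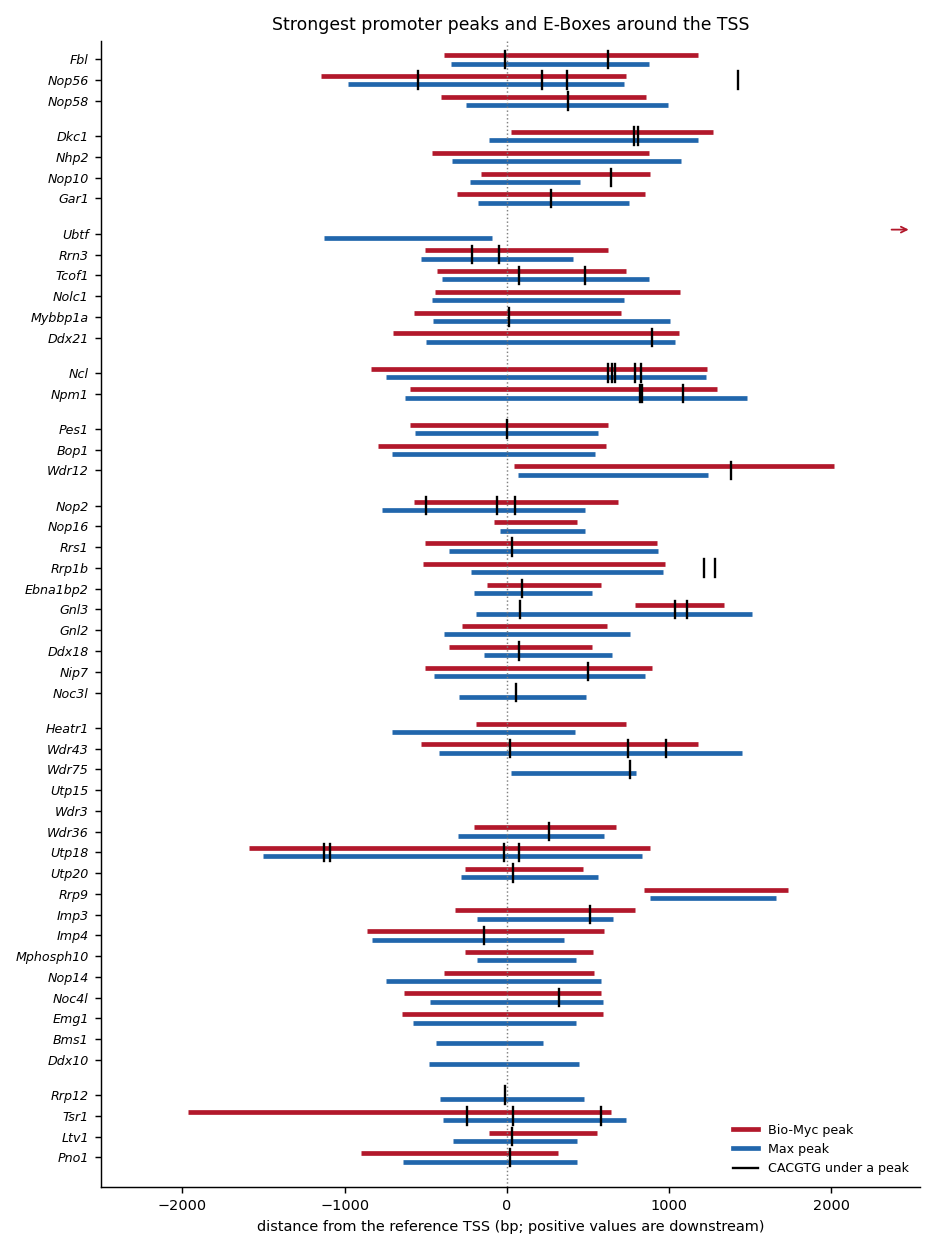
Strongest promoter peaks and E-Boxes of the 49 nucleolar factor genes against the distance from the reference TSS in bp, with downstream to the right. Red bars are Bio-Myc peaks, blue bars are Max peaks and black ticks are CACGTG under any promoter peak of the gene, so that ticks outside the bars of Nop56 and Rrp1b belong to a further promoter peak. The arrow stands for the Bio-Myc peak of Ubtf, which lies beyond the axis with the E-Boxes of that gene. Most bars cover the dotted line at the TSS, and 49 of the 61 E-Boxes are downstream of it.

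Several E-Boxes under the Bio-Myc peaks were found at 12 of the 42 bound genes (28.6%, interval 17.2 to 43.6), compared with 14.9% of the other bound genes, and at least 3 were found at 8 of 42 (19.0%, interval 9.98 to 33.3), compared with 4.18%. The 8 genes are Ncl with 5, Utp18 with 4, and Nop56, Npm1, Nop2, Gnl3, Wdr43 and Tsr1 with 3 each. Fbl, Dkc1, Rrn3 and Tcof1 had 2 each. The 8 genes include Ncl with the second highest Bio-Myc score of all bound genes and Nop2 with a score near the limit. E-Boxes were counted over whole peaks, whose median width was 1230.5 bp, compared with 1072 bp at the other bound genes. The part of width in the numbers of E-Boxes per gene was not tested. No E-Box was found under the Bio-Myc peaks of 11 genes, namely Nhp2, Nolc1, Bop1, Nop16, Rrp1b, Gnl2, Heatr1, Rrp9, Mphosph10, Nop14 and Emg1. Of these, 6 had CACGCG there, and 5 had CACGTG elsewhere within 1 kb of a TSS. Rrp1b and Gnl2 had both, and Heatr1 and Nop14 had neither.

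The median scores were higher where a promoter peak held an E-Box. E-Boxes were sought under whole peaks, and the part of peak width in this difference was not tested. The median Bio-Myc score was 317 (interval 172 to 450.45) at 31 genes with an E-Box and 203 (interval 122 to 372) at 11 genes without, and the intervals overlap. At the other bound genes the medians were 164 and 125. The median Max score was 540.3 (interval 309 to 649) with an E-Box and 287 (interval 160.4 to 423.5) without, with overlapping intervals, and 264 and 163 at the other genes. Of the 40 nucleolar factor genes with CACGTG within 1 kb of a TSS, 36 were bound by Bio-Myc and 40 by Max, compared with 23.6% and 50.2% of the other genes with CACGTG there. Of the 9 without, 6 were bound by Bio-Myc and 7 by Max, compared with 8.65% and 24.7%.

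Many of the genes share their promoter with a gene on the other strand. A protein-coding TSS on the other strand lay within 1 kb of a TSS of 16 of 49 genes (32.7%, interval 21.2 to 46.6), compared with 11.9% of the other genes. At 14 of the 16, a Bio-Myc and a Max promoter peak also lay within 1 kb of a TSS of the neighbour, so that a peak there cannot be assigned to 1 of the genes. These pairs are Bop1 with Hsf1, Wdr12 with Carf, Nop16 with Higd2a, Ebna1bp2 with Wdr65, Gnl3 with Pbrm1, Nip7 with Cog8, Utp18 with Mbtd1, Rrp9 with Parp3, Imp4 with Ccdc115, Mphosph10 with Mcee, Nop14 with Grk4, Noc4l with Ddx51, Emg1 with Phb2 and Pno1 with Wdr92. The remaining pairs, Utp15 with Ankra2 and Wdr3 with Gdap2, are those of the unbound genes. At Ncl and Wdr36 the gene on the other strand is a lincRNA gene, C130036L24Rik and 4930455D15Rik, which also shares both peaks. Without a protein-coding neighbour, 28 of 33 nucleolar factor genes were bound by Bio-Myc (84.8%, interval 69.1 to 93.3) and 33 of 33 by Max, compared with 11.9% and 30.6% of the other genes without one.

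Some of the genes carry snoRNA genes within their own bounds, so that the host codes for a nucleolar protein and its introns can give rise to snoRNAs. This held for 7 genes, namely Nop56, Nop58, Dkc1, Ncl, Gnl3, Wdr43 and Tsr1, and 7 of 7 were bound by both proteins. Among the other 262 protein-coding hosts, 41.2% were bound by Bio-Myc and 56.9% by Max.

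The rest of the pathway was taken from a list of 121 further ribosome biogenesis genes, of which 119 are annotated. Of these, 80 were bound by Bio-Myc (67.2%, interval 58.4 to 75.01) and 100 by Max (84.0%, interval 76.4 to 89.5). The intervals of these shares overlap those of the nucleolar factor genes, but the share with both peaks, 72 of 119 (60.5%, interval 51.5 to 68.8), lay below that of the nucleolar factor genes (85.7%, interval 73.3 to 92.9) without overlap. A score of at least 300, chosen after seeing the data, left Bio-Myc at 11.8% (interval 7.14 to 18.8) of the further genes. Max was then at 31.1% (interval 23.5 to 39.9). Neither interval overlapped that of the nucleolar factor genes (26.4 to 52.8 and 47.2 to 73.6). For Bio-Myc, the intervals of these groups also did not overlap at limits of 110 and 200, but did at 150 and 500. For Max, they overlapped at none of these limits. The genes and the lists were chosen with earlier results of these data known, so these comparisons of intervals are a description only. The highest Bio-Myc score among the further genes was that of Riok2, a kinase of late small subunit maturation, with 846. Mdn1, a large AAA ATPase of large subunit assembly, had 584. Utp4 (annotated as Cirh1a), Nol12 and Rpp38 followed with 584, 579.8 and 482. For genes of the finished ribosome, Bio-Myc was present at 80 of 84 cytosolic ribosomal protein genes (95.2%, interval 88.4 to 98.1) and Max at 76 of 84 (90.5%, interval 82.3 to 95.1). Mitochondrial ribosomal protein genes had Bio-Myc at 33 of 76 (43.4%, interval 32.9 to 54.6) and Max at 56 of 76 (73.7%, interval 62.8 to 82.3). The intervals of the nucleolar factor genes and the mitochondrial ribosomal protein genes do not overlap for either protein, and those of the nucleolar factor genes and the cytosolic ribosomal protein genes overlap for both.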

How the data were processed

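Per the labels, chromatin of E14 mouse ESCs was precipitated with streptavidin beads (Bio-Myc and mock ChIP), an antibody to Max or IgG. Alignment by the authors was to mm9 with Bowtie 0.12.7, which kept only reads with a unique hit and no more than 2 mismatches, and duplicates were merged. Their peaks came from MACS 1.4.1, with the mock or IgG ChIP as control and 1e-08 as the p-value limit. The submitters' processing notes also name CASAVA 1.8. The score deposited by the authors is -10 log10 of the MACS p-value. Read counts are not given in the sources used here, so the depth of the libraries is unknown. Unique mapping leaves out repeated sequence, and the number of peaks at a fixed p-value depends on depth.

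A peak was assigned to a gene when it overlapped by at least 1 bp the window of 1 kb to either side of any TSS of GENCODE M1 (mm9). No peak ran past the end of a chromosome. The strongest promoter peak gave the score of a gene. CpG-rich promoters had an observed/expected CpG ratio of at least 0.6 and at least 55% G and C. CACGTG was sought in the mm9 sequence under the whole promoter peaks, and distances to a TSS run from the middle of the motif on the strand of the gene. Medians have 95% intervals from order statistics. With 1 library per ChIP no test was made, and the other protein-coding genes served as the background.

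The genes and the lists were chosen with earlier results of these data known. All genes of the list could be named by role. Full values were given for the 5 highest scores in each list, genes with 1 or neither peak, genes with at least 2 E-Boxes under Bio-Myc peaks, the 3 highest and 3 lowest score ratios, neighbours on the other strand, and the 5 highest Bio-Myc scores of the wider list. The alternatives were other promoter windows, score limits, TSS choices, equal list lengths, fewer chromosomes, CpG-rich promoters and other motif windows. The tools were samtools 1.23.1 and Python 3.11.15 (pysam 0.24.0, scipy 1.17.1, numpy 2.4.6; plots by matplotlib 3.10.9). The counting was tested on simulated data, and 9 of 9 steps returned the known answers.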

Additional observations from a re-analysis of the deposited data

How the results depend on the processing

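Of 95 alternative values, 78 stayed within 1.5 times the reported count or within the interval of the reported median. The 78 include Bio-Myc counts with the Max list cut, which that cut cannot change. They also include counts of CACGCG, which is another motif, so 78 overstates the stability. In 42 of 42 alternatives for the genes with a Bio-Myc peak, a Max peak or both, the share among nucleolar factor genes was above that among the other protein-coding genes. The 42 alternatives include the unchanged Bio-Myc count with the Max list cut. Stricter limits lowered the counts. At a score of at least 200, Bio-Myc was found at 26 genes, both peaks at 24 and neither at 9, and in the wider list Bio-Myc at 33 and Max at 55. At a score of at least 150, neither peak was found at 6 genes, and Bio-Myc at 49 genes of the wider list. A score of at least 300, chosen after seeing the data, left Bio-Myc at 19 genes, Max at 30 and both at 18. With the Max list cut to the number of Bio-Myc peaks, neither peak was found at 5 genes, and Max at 55 genes of the wider list. CACGTG was found in the central 200 bp of Bio-Myc peaks at 10 genes (23.8%, other genes 17.8%) and of Max peaks at 12 (25.5%, other genes 17.9%), in the central 500 bp at 18 (42.9%, other genes 34.7%) and 21 (44.7%, other genes 29.5%), and within 250 bp of a TSS at 25 (51.0%, other genes 17.1%). These settings count fewer peaks or shorter sequence by construction. Leaving out genes with a divergent coding neighbour was also chosen after seeing the data. No paired analysis was possible because each ChIP is 1 library without a replicate. The unknown depth limits what the absence of a peak shows.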

Other observations

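Bio-Myc peaks without a Max peak were absent from the nucleolar factor genes, where 42 of 42 promoters with Bio-Myc also had Max. In the wider list, 8 of 80 promoters with Bio-Myc had no Max peak, and among the other protein-coding genes 2790 of 3233 had both. The cytosolic ribosomal protein genes had Max at 76 of 80 promoters with Bio-Myc. These counts depend on the length of the Max list. With that list cut to its 3962 highest-scoring peaks, the number of Bio-Myc peaks, 34 of the 42 nucleolar factor genes with Bio-Myc also had Max. The share with both peaks fell from 85.7% to 69.4% of all 49 nucleolar factor genes. Among all other protein-coding genes it fell from 12.5% to 8.19%.

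The E-Box nearest to the centre of a promoter Bio-Myc peak lay at a median of 180 bp from it (interval 76 to 305) at the 31 nucleolar factor genes with an E-Box there, and at 147 bp (interval 139 to 159) at the 1596 other genes, which the former interval includes. For Max, the medians were 137 bp (interval 87 to 262) and 109 bp (interval 102 to 116).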
